A study of Mus musculus with 12 samples.

Results

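Small nuclear RNAs (snRNAs) are the short, stable RNA cores of the particles that splice messenger RNA precursors. U1 recognises the 5' splice site, U2 pairs with the branch point, U5 holds the exon ends and U6 forms the catalytic centre, while U11 and U12 do the work of U1 and U2 in the minor spliceosome. Most carry a cap at the 5' end, a single-stranded site near the 3' end on which a ring of Sm or related Lsm proteins assembles, and a 3' terminal stem. U7, which the annotation also types as an snRNA, belongs to the particle that forms the 3' ends of histone mRNAs and has no part in splicing.

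The members described here are all 1383 genes typed snRNA in the GENCODE vM21 annotation (GRCm38), out of 55450 annotated genes. A read counted for them when its sequence of 18 nt or more matched an snRNA gene exactly on the sense strand. Of these genes 858 had a read in at least 1 of 12 libraries and 525 had none. Genes that shared a read were merged, since an exact match cannot place the read, which gave 48 groups. Of these, 10 reached a mean of 1 CPM (counts per 1000000 reads of the file) over the 12 libraries, and the highest mean among the other 38 was 0.076 CPM. By symbol or by alignment to a named gene, 69 genes belonged to U1, 16 to U2, 10 to U5, 550 to U6, 46 to U7, 4 to U11 and 4 to U12, and 684 had no named family. The 10 groups are U1 (98 merged genes), U2 (38), U5 (11), U6 (601), U7 (8), U11 (5), U12 (4) and 3 groups whose genes carry no family name, called by their leading gene: Gm25541 (11), Gm24265 (34) and Gm22710 (1). No gene of the annotation was named as U4, although the rule lists U4, and no group is called so here.

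The study sequenced RNA of 18 to 75 nt from mouse embryonic stem cells to look at small RNAs bound to Argonaute. The 2 clonal lines, TT-FHAgo2 with FLAG-tagged Ago2 and TT-Ago2 with Ago2 that by its name bears no tag, were kept in 0.1 µg/mL doxycycline and induced at 2.5 µg/mL. From each came 2 FLAG immunoprecipitates (tagged IP and untagged IP) and 2 inputs, cloned by circularization, a protocol that does not depend on the 5' end of the RNA. Another 4 libraries, 1 of each kind, were made by ligation to a 5' phosphate: TT-FHAgo2 at 2.5 µg/mL doxycycline, TT-FHAgo2 without doxycycline (by the series text, cells without Ago proteins), wildtype cells and Dicer null cells, both without doxycycline. Each line of the IPs is 1 clone, so the tag and the clone cannot be told apart. Replicates A and B stand for the 2 codes in the titles, which recur in all 4 replicated groups and whose meaning the labels do not give. The longest reads were 50 nt in A, 51 nt in B and 40 nt in the single libraries. The labels do not say whether replicates are separate cultures, so p-values measure only the spread between these libraries.

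The fragments that the results turn on lie near the 3' end of the genes in the libraries made by circularization. They are shown here as the last 50 nt of the leading gene of each group, with T for U. The leading gene is a gene named by family where the group holds one, and otherwise the gene that most reads match. For U5 it is not the most abundant copy. By mean CPM over the 12 libraries 46.6% of U5 reads match Rnu5g, and Gm25099 had more reads of its own (298.9 against 143.7 CPM). The capitals mark the most abundant fragment of the region on the leading gene.
Rnu1a1 (U1): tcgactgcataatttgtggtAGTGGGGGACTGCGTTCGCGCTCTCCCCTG
Rnu2-10 (U2): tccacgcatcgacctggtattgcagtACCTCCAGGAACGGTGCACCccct
Rnu5g (U5): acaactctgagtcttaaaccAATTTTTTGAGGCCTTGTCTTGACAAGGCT
Rnu12 (U12): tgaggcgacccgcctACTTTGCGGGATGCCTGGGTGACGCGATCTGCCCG
Rnu11 (U11): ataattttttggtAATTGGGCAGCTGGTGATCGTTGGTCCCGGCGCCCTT
Gm25541: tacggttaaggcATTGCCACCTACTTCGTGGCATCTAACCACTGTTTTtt
The U1 fragment spans chr11:87423001-87423030 on the plus strand (nt 135 to 164 of the 164 nt gene), and 14 snRNA genes hold it. That of U2 spans chr11:101658405-101658424 on the plus strand and stops at nt 187, 4 nt before the end of the annotated 191 nt gene. The U5 fragment spans chr9:65201726-65201755 on the minus strand, that of U12 chr15:83149760-83149794 on the plus strand, that of U11 chr4:132270080-132270116 on the minus strand and that of Gm25541 chr2:27539807-27539842 on the minus strand. Rnu11 lies opposite the lincRNA Gm28872. The letters ATTTNT, the core of an Sm site, were searched on the sense strand, and 774 of 1383 snRNA genes (56.0%) hold them (311, or 22.5%, on the antisense strand). Rnu6 also holds them, at nt 102 of 107, although U6 carries Lsm proteins, so a match alone is not an Sm site. How many of the 774 are among the 550 U6 genes was not counted. In U1 the letters begin at nt 126, so the main fragment starts after them, and in U11 they begin at nt 88 and the fragment at nt 98. In U5 they begin at nt 88, inside a fragment that starts at nt 87, and in U12 at nt 75, well before the fragment at nt 117. Gm25541 does not hold these letters.

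The libraries made from RNA with a 5' phosphate held other pieces of the same genes, whose reads mostly touched neither annotated end. Of snRNA reads there, 40.2% to 48.2% had the longest length, 40 nt, so their true 3' ends may lie further on. Below, capitals mark the most abundant piece and the lower-case letters its neighbours in the gene.
Rnu2-10 (U2): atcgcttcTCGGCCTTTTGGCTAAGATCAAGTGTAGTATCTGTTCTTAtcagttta
Rnu1a1 (U1): gtgggggaCTGCGTTCGCGCTCTCCCCTG
These are nt 9 to 48 of U2 (chr11:101658246-101658285, plus strand) and nt 144 to 164 of U1 (chr11:87423010-87423030, plus strand). The piece of U2 has the length of the longest read there, 40 nt, so its true 3' end may lie further on.

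Files held 14474875 to 78762632 reads. A count of 0 allows up to 0.0381 to 0.207 CPM, and reads from the same PCR product cannot be told from separate molecules, so floors and intervals cover counting error only. All 7 annotated stem cell miRNAs of a list of 8 were detected in all 12 libraries, with a summed level of 45996 CPM in wildtype cells and 194 CPM in Dicer null cells. Marker miRNAs of other cell types summed to at most 592 CPM (fibroblast, 3 of 4 detected in every library), 4697 CPM (blood, 1 of 3), 3.7 CPM (liver, 0 of 1), 11.7 CPM (muscle, 0 of 2) and 217 CPM (neural, 1 of 1 annotated). The stem cell, fibroblast and blood lists were highest in both tagged IPs, and those of liver and muscle were highest elsewhere. The neural list stood at 183 CPM in tagged IP A, 217 in B and 215 in wildtype cells.

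SnRNA reads were scarce in the tagged IP and abundant in the untagged one. Tagged IP A and B held 0.191% and 0.258% snRNA reads, untagged IP A and B 2.89% and 2.95%. The inputs held 0.925% and 0.760% (tagged) and 0.810% and 2.61% (untagged). By reads the untagged IP thus lay above every other library, with 13.0 times the mean share of the tagged IP (2.92% ± 0.0461 against 0.224% ± 0.0472, SD, n = 2 each). Within replicate A the ratio was 15.1 and within B 11.5. Against its own input the tagged IP held 0.266 times the share, or 0.206 within A and 0.339 within B. The untagged IP held 1.71 times that of its input, but 3.56 within A and 1.13 within B. The U7 group stood at 17037 CPM in untagged input B against 1404 CPM in A, and without it the ratio was 3.52 (3.95 within A and 3.20 within B). As shares of all reads the groups did not overlap in these 3 comparisons, and a two-sided exact permutation test gave p = 0.3333, below which a design of 2 against 2 cannot go. As shares of reads of 18 nt or more, the untagged IP overlapped its input (exact permutation p = 1), with a ratio of 1.47 overall and 0.958 within B. With each distinct sequence counted once, the untagged IP held 0.953 times the share of the tagged IP, with overlapping groups, and 0.763 times that of its input.

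**Figure D1:**
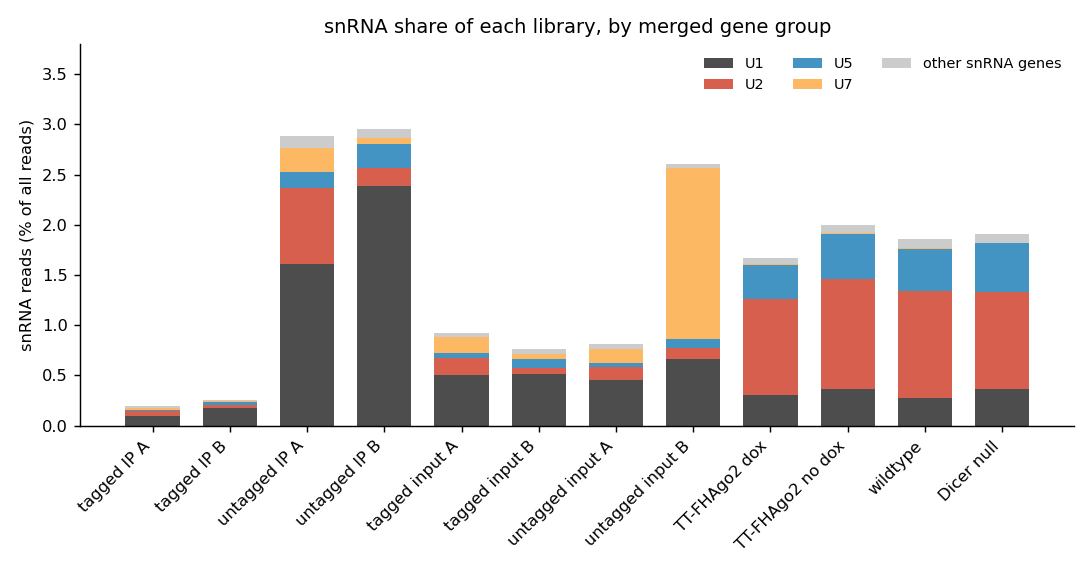
Stacked bars give the percent of all reads that match snRNA genes in each of the 12 libraries, split by merged gene group. Both untagged IP bars stand near 3%, both tagged IP bars below 0.3%, and the U7 part fills most of the bar of untagged input B.

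Between the IPs, the share of miRNA hairpin reads moved opposite to that of snRNAs. Hairpin reads were 58.3% and 50.7% of the tagged IP (A and B), 9.19% and 13.1% of the untagged IP, 3.07% and 1.81% of the tagged input and 3.32% and 3.37% of the untagged input. Over reads outside hairpins the snRNA ratio of tagged to untagged IP was 0.149 in place of 0.0768, that of the tagged IP to its input 0.567 and that of the untagged IP to its input 1.86. In the untagged IP U1 was the leading snRNA at 55.9% and 80.9% of snRNA reads, and it also led in both tagged IPs and both tagged inputs, at 52.8% to 69.5%. Per 100 nt of the leading gene, the mean level over the 12 libraries was 3928 CPM for U1, 3249 for U7, 2422 for U2, 1719 for U5, 258 for U6 and 134 for U12. It lay between 7.35 and 33.6 CPM for U11 and the 3 unnamed groups.

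Each group was then tested with edgeR's quasi-likelihood test among 688 small RNA features, with Benjamini-Hochberg adjustment over all of them and a threshold of 0.05. The first question is what came down with the tag: all 10 groups were lower in the tagged than in the untagged IP, where 34.3% of all features were called lower. The median log2 fold change of the 10 was −2.96. It was 1.85 over all features, of which 416 are miRNA genes (355 higher), and −2.54 over the 262 that are neither miRNA nor snRNA. Of snoRNAs, the guides of RNA modification, 174 of 214 were lower (median −2.64), and of scaRNAs, which guide modification of the snRNAs themselves, 8 of 12 (−2.20). Outside miRNAs and snRNAs, 204 of 262 features were lower, so the direction was shared by most of them. With library sizes set to reads outside hairpins, 7 of the 10 groups were lower in place of all 10, where 19.4% of all features were called lower.

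U1 was measured at 1007 (A) and 1790 (B) CPM in the tagged IP, against 16140 and 23879 in the untagged IP, with 5054 and 5098 in the tagged input and 4520 and 6662 in the untagged input. Every tagged IP value lies below every input, and both values of the untagged IP lie above them. In edgeR the tagged IP was lower by a log2 value of −3.84 (SE 0.58, adjusted p 0.00299).

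U2, the branch-point snRNA, stood at 432 and 253 CPM in the tagged IP, against 7559 and 1804 in the untagged IP, with 1713 and 691 in the tagged input and 1347 and 1052 in the untagged input. Its replicates were far apart in the untagged IP, with A more than 4 times as high as B, yet neither reached the tagged IP. The difference of the IPs was −3.77 in log2 (SE 0.76, edgeR adjusted p 0.00299).

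U5 gave 97.0 and 264 CPM in the tagged IP, against 1514 and 2356 in the untagged IP, with 497 and 880 in the tagged input and 388 and 880 in the untagged input. The tagged and untagged inputs overlap, and the IPs lie on either side of them. The fold change was −3.42 (log2, SE 0.70, edgeR adjusted p 0.00299).

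For U6, the catalytic snRNA, which carries Lsm proteins in place of the Sm ring, the tagged IP held 41.7 and 23.8 CPM and the untagged IP 406 and 172. The inputs held 212 and 338 (tagged) and 211 and 319 CPM (untagged), so that the untagged IP of U6 overlapped its input. It was lower in the tagged IP by −3.14 in log2 (SE 0.66, edgeR adjusted p 0.00299).

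Of the minor spliceosome, U12 stood at 94.1 and 70.6 CPM in the tagged IP, against 636 and 527 in the untagged IP, with 65.8 and 37.5 in the tagged input and 94.6 and 39.6 in the untagged input. It was the only one of the 10 groups with a higher mean in the tagged IP than in its input. U11, the partner of U12, was rarer, at 4.32 and 6.31 CPM in the tagged IP, against 32.0 and 37.8 in the untagged IP, and 16.9 to 29.2 in the 4 inputs. Tagged against untagged IP, U12 was at −2.82 in log2 (SE 0.64, edgeR adjusted p 0.00310) and U11 at −2.71.

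U7 of the histone particle, whose gene (chr6:124741225-124741286) lies within a 5' UTR exon of Grcc10 on the same strand, gave 206 and 146 CPM in the tagged IP against 2419 and 620 in the untagged IP. Reads of U7 and of the Grcc10 mRNA cannot be told apart here. Among the inputs it ranged from 422 (tagged B) through 1404 (untagged A) and 1582 (tagged A) to 17037 CPM (untagged B). The difference between the IPs was −3.11 (log2, SE 1.02, edgeR adjusted p 0.0117), but it was not called without the untagged IP A (−1.82), without the tagged IP B (−2.88) or with library sizes outside hairpins (−2.09).

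Among the groups with no family name, Gm25541 held 18.9 and 13.3 CPM in the tagged IP against 102 and 79.9 in the untagged IP (log2 fold change −2.50). Gm24265 held 6.27 and 7.54 against 33.9 and 23.1 CPM (−2.04), and Gm22710 1.03 in both against 8.75 and 1.98 CPM (−2.37). For Gm22710 the replicates of the untagged IP differed by more than 4 times, and the call was lost without A (−0.93), without the tagged IP B (−2.37, adjusted p 0.0515) or with library sizes outside hairpins (−1.39). Its locus also overlaps 2900060B14Rik, a gene typed antisense, whose reads cannot be separated from it.

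**Figure D2:**
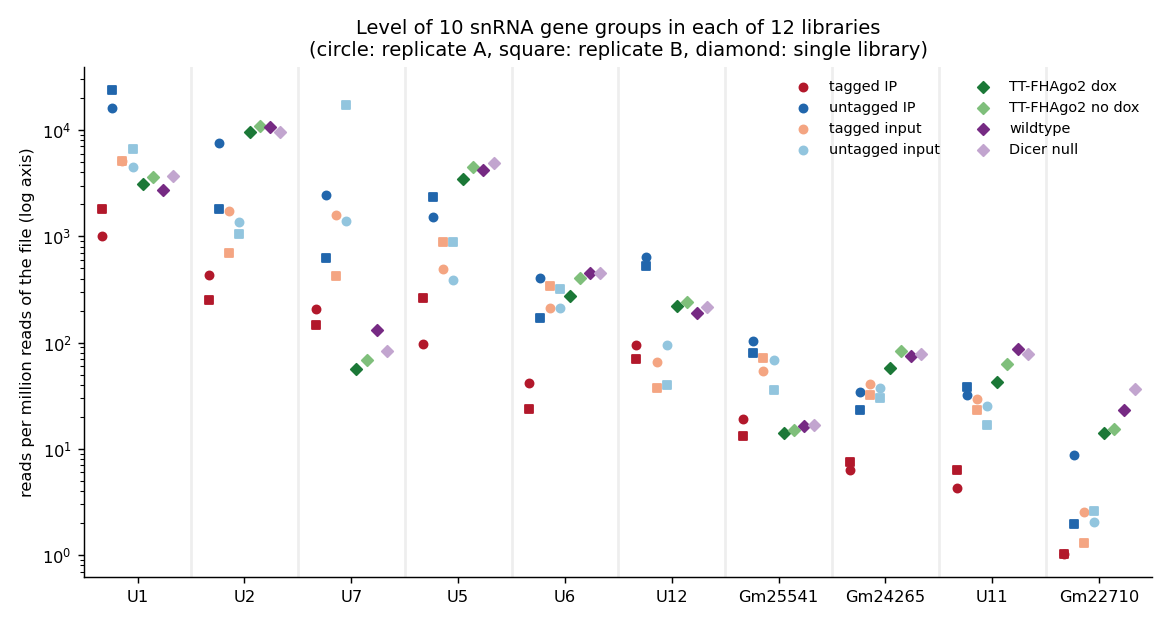
Points give the level of each of the 10 snRNA groups in each library, in CPM on a log axis, coloured by condition and with circles for replicate A, squares for B and diamonds for single libraries. For all 10 groups both tagged IP points lie below both untagged IP points, and the U7 point of untagged input B stands above all others of that group.

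The second question is how each IP compares with its own input. In the tagged line 8 of the 10 groups were lower in the IP, where 39.1% of all features were called lower and the median log2 fold change over all features was 3.91. The median of the 10 groups was −1.95, against −3.41 over the 262 features that are neither miRNA nor snRNA, of which 231 were lower. U6 had the most negative value, −3.07 (SE 0.66, edgeR adjusted p 0.000564), followed by U7 with −2.51. U1 (−1.86, SE 0.53, edgeR adjusted p 0.00431), U2 (−1.81) and U5 (−1.93) lay close together. U12 was not called at 0.67 (SE 0.60, edgeR adjusted p 0.286), and neither was Gm22710 at −0.88. With library sizes set to reads outside hairpins 3 of the 10 groups were lower, close to the 27.5% of all features, and U12 was called higher at 1.80, while with TMM factors U12 was lower at −2.32. Without the tagged IP A, 5 groups were lower (32.8% of all features), and without the tagged IP B also 5 (31.5%).

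In the untagged line, where no FLAG tag is present, 3 groups were higher in the IP than in the input. They were U12 at 3.12 (log2, SE 0.64, edgeR adjusted p 0.0148), U2 at 1.96 (SE 0.71, edgeR adjusted p 0.0411) and U1 at 1.84 (SE 0.53, edgeR adjusted p 0.0210). Of all features 34% were called higher, 227 of these 234 being miRNAs, and 4 of the 262 features that are neither miRNA nor snRNA were. No snoRNA of 214 was higher and 37 were lower. U5 (1.61, edgeR adjusted p 0.0629), U6 (0.12), Gm25541 (0.80), U11 (0.73), Gm24265 (−0.25) and Gm22710 (1.2) were not called. U7 was called lower at −2.60 (SE 0.99, edgeR adjusted p 0.0498), where 7.41% of all features were lower, but without untagged input B it was at 0.11. TMM factors called 1 group higher, U12, where 73 of 688 features were higher. DESeq2 also called only U12, where 127 of 1200 features were higher. Without the untagged input A the median log2 fold change of the 10 groups was 1.09, but not all of the 3 groups kept their call. Without the untagged IP A, U2 stood at 0.59 and was not called. The median of the 10 groups was 1.11 without the untagged IP B and 0.93 without the untagged input B. In both of these fits edgeR no longer called any group, or any other feature, higher.

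The difference between the 2 lines in the gain of IP over input was tested as an interaction. It was lower in the tagged line for 8 of the 10 groups, where 29.1% of all features were called lower and the median of features that are neither miRNA nor snRNA was −2.63. U2 (−3.78) and U1 (−3.70, SE 0.75, edgeR adjusted p 0.0114) were the most negative and Gm24265 (−2.16) the least among those called. U7 (0.09) and Gm22710 (−2.08) were not called. Without untagged input B, U7 stood at −2.62 on this scale and 5 groups were called (20.6% of all features lower), and without the tagged IP B 3 were (11.4%).

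**Figure D3:**
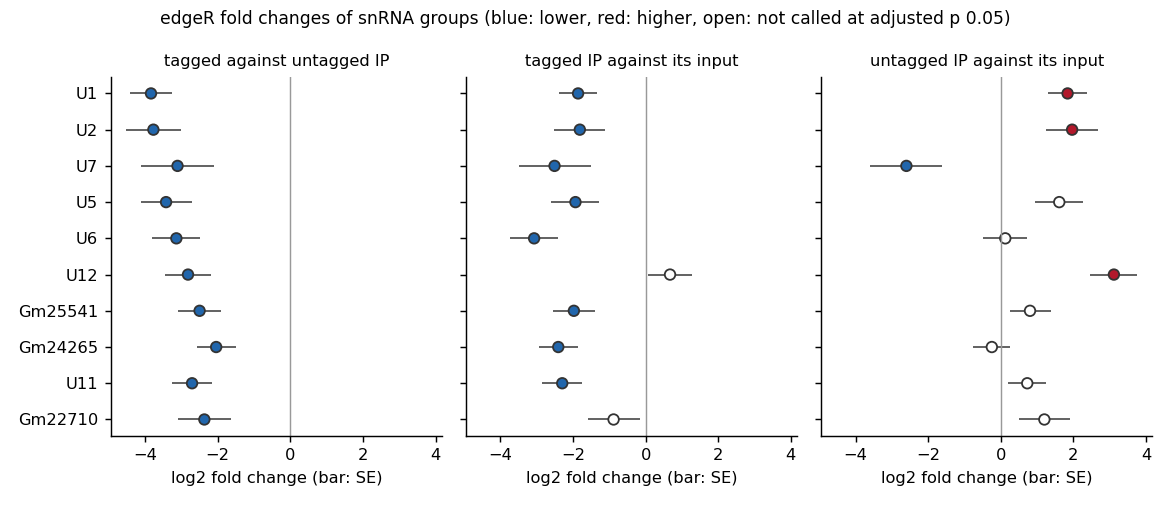
Points are the edgeR log2 fold changes of the 10 groups in 3 comparisons, with bars for 1 SE, blue for lower, red for higher and open for not called. In the left panel all 10 are lower, and in the right panel U1, U2 and U12 are higher and U7 is lower.

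In both IPs most U1 reads came from the 3' end of the gene. In the untagged IP 98.4% (A) and 98.5% (B) of U1 reads ended within 2 nt of the annotated 3' end, and in the tagged IP 91.7% and 89.8%. The inputs had 85.2% to 91.8%, so both untagged IPs lie above all other libraries on this measure and both tagged IPs lie within the input range. The most abundant 5' end of U1 was nt 135, after the Sm site letters. Reads from there stood at 5903 and 9429 CPM in the untagged IP against 345 and 632 in the tagged IP, and at 833 and 1198 in the tagged input and 911 and 3290 in the untagged input. As a share of U1 reads they were 36.6% and 39.5% in the untagged IP against 34.3% and 35.3% in the tagged IP, and 16.5% to 49.4% in the inputs. Starts at nt 125, 1 nt before the Sm site letters, added 13.9% and 10.5% in the untagged IP against 11.6% and 6.61% in the tagged IP, and nt 123 was the next by its mean over the 12 libraries. In untagged IP A and B the nt 123 start reached 1737 and 1976 CPM, in the tagged IP 75.6 and 35.4.

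In the IPs most U12 reads began at nt 117, and the main fragment from there runs to nt 151, the end of the gene. This 5' end made up 79.1% and 77.5% of U12 reads in the untagged IP against 81.2% and 59.4% in the tagged IP. In the tagged input it was 54.6% (A) and 13.6% (B), in the untagged input 60.2% and 20.1%. In the inputs both A values thus lie above both B values, while the 2 untagged IPs lie close together. In CPM the exact fragment held 72.4 and 39.1 in the tagged IP, 34.4 and 4.68 in its input, 480 and 382 in the untagged IP against 54.3 and 6.49 in the input of that line.

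U2 reads ended near nt 187, so only 3.05% to 5.70% lay within 2 nt of the annotated end in these 8 libraries, but 38.6% to 82.4% within 4 nt. The untagged IP had the highest of these values, 82.4% and 69.6%, and the tagged IP 66.8% and 38.6%. Starts at nt 168 were the most abundant, with 1255 and 245 CPM in the untagged IP against 55.6 and 25.8 in the tagged IP. Starts at nt 149, chosen after the values were seen, took 17.2% and 15.6% of U2 reads in the untagged IP against 2.21% to 7.05% in the other 6 libraries of this protocol, so the untagged IP stood apart from its input and from the tagged IP here. U5 ended at its annotated 3' end in 74.5% and 81.1% of reads of the untagged IP, 67.1% and 72.4% of the tagged IP and 57.8% to 74.3% of the inputs. For U6 the ends varied between libraries, with 22.9% to 81.4% of reads at the 3' end. In these shares a read that matches more than 1 gene counted as at an end if it reached that end in any of them, and U6 merges 601 genes. Starts at nt 24, first by mean level in this protocol, took 3.94% to 13.7% of U6 reads, while starts at nt 1 took 17.7% in tagged input A and starts at nt 89 took 22.4% in tagged input B. Gm24265 stood apart, with 0.971% to 3.49% of reads at the 3' end and 8.28% to 41.2% at the 5' end. Gm25541, like U2, ended short of the annotation, within 4 nt in 85.8% to 94.8% of reads of the 8 libraries.

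The annotated 5' end, which in the cell carries a cap, was seldom the start of a read. It began 0.0443% to 0.405% of U1 reads in these 8 libraries and 1.21% to 11.1% of U2 reads. U7 had more, 29.4% in tagged IP A and 50.5% in tagged input A, but 1.25% and 0.548% in the B libraries of the same groups. Over all snRNA reads the 5' end share was 4.44% (A) and 1.04% (B) in the tagged IP against 3.21% and 0.504% in the untagged IP. A exceeded B in both, the groups overlapped, and a two-sided exact permutation test gave p = 0.667. Without U7 the mean shares were 1.22% and 0.564%, which did not overlap (exact permutation p = 0.3333). For reads ending within 2 nt of the 3' end the shares were 64.3% and 78.3% in the tagged IP against 67.2% and 90.6% in the untagged IP (exact permutation p 0.667, groups overlapping). With a window of 4 nt, chosen after the values were seen so that U2 counts, they were 80.1% and 82.7% against 89.2% and 95.1%, which did not overlap (exact permutation p = 0.3333).

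**Figure D4:**
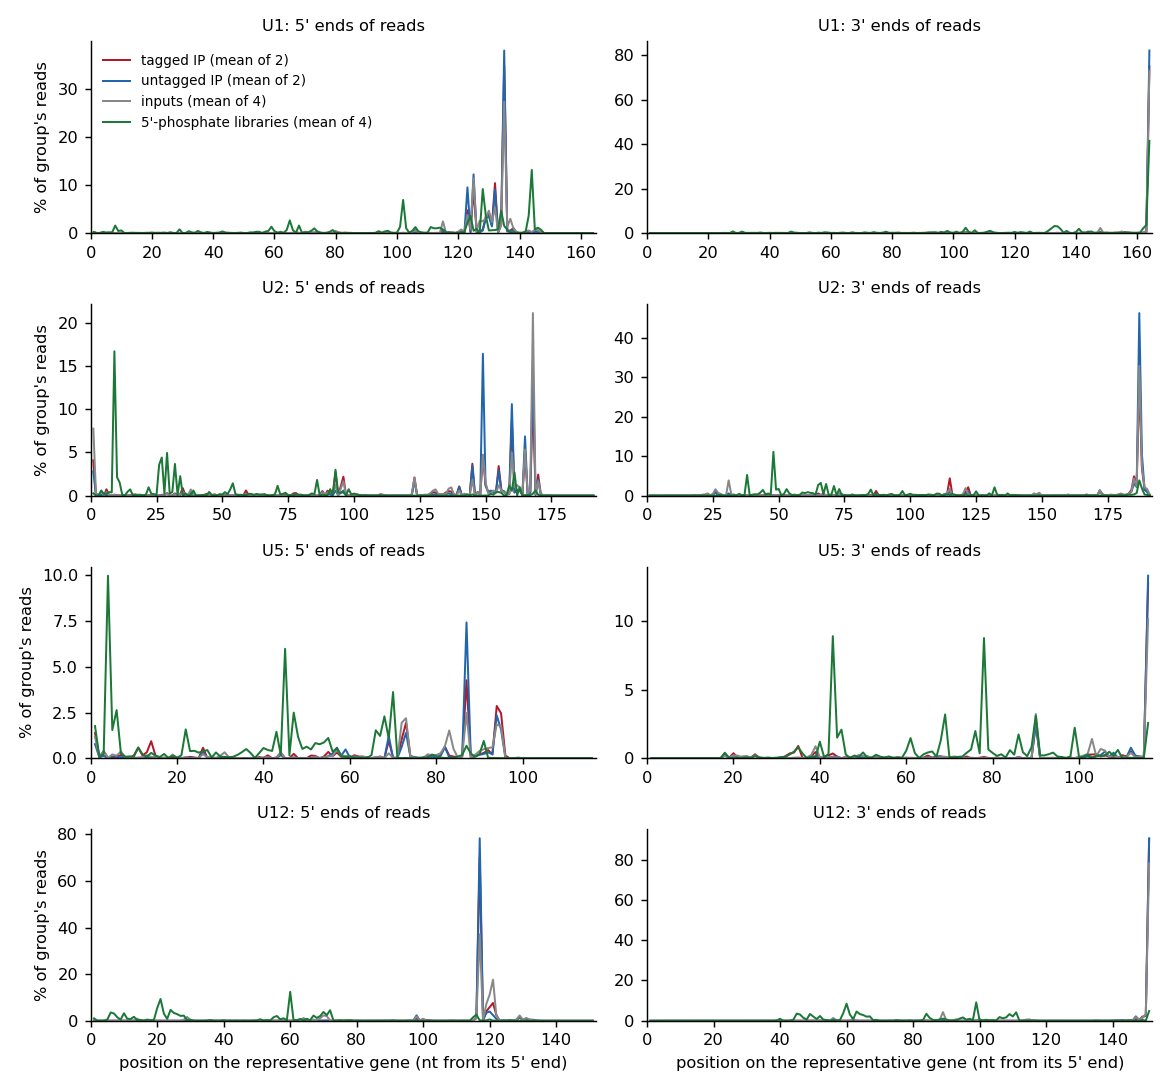
Lines give the percent of a group's reads whose 5' end (left) or 3' end (right) lies at each position of the leading gene, for U1, U2, U5 and U12, as means of the libraries named. Of U5 reads, 46.6% match the leading gene by mean CPM over the 12 libraries, and the others are not drawn. The IPs and inputs made by circularization peak at the 3' end of each gene, while the 4 libraries made from RNA with a 5' phosphate peak inside U2, U5 and U12. Reads of these 4 libraries stop at 40 nt, so a 3' end drawn for them can be the read limit.

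The fragments were longer than the usual cargo of Argonaute. The median snRNA read had 33 nt (A) and 31 nt (B) in both the tagged and the untagged IP, 35 and 31 nt in the tagged input and 35 and 39 nt in the untagged input. Reads of 30 nt, the length of the main U1 fragment, were 20.3% and 26.4% of snRNA reads in the tagged IP against 23.1% and 33.7% in the untagged IP. Reads of 20 to 24 nt, where Ago2 cargo lies, made up 10.7% and 9.34% of snRNA reads in the tagged IP, against 10.3% and 5.04% in the untagged IP, with 12.6% and 11.9% in the tagged input and 11.1% and 5.64% in the untagged input. The tagged IP therefore held no larger share of this size than its own input. Against the untagged IP the ratio was 1.30 (1.03 within A, 1.85 within B), the groups overlapped, and a two-sided exact permutation test gave p = 0.667. Among single groups this share was low for U1, at 0.884% and 0.703% in the untagged IP against 3.39% and 1.98% in the tagged IP. It was high for U2, at 32.3% and 31.6% against 29.6% and 35.1%, and for U5, at 17.7% and 27.6% against 23.4% and 36.9%. U11 had 40.8% and 29.5% of its reads at 20 to 24 nt in the tagged IP against 15.7% and 14.5% in the untagged IP. Its level in the tagged IP was only a few CPM, with 71 reads in A and 190 in B. The tagged input had 29.1% and 23.0% and the untagged input 23.8% and 12.3%, so tagged IP B lay close to tagged input A. The IPs did not overlap for U11, and the pair was singled out after the values were seen. An A began 67.9% and 53.9% of snRNA reads in the tagged IP against 75.0% and 69.1% in the untagged IP, and A is the first letter of the main fragments of U1 and U12.

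**Figure D5:**
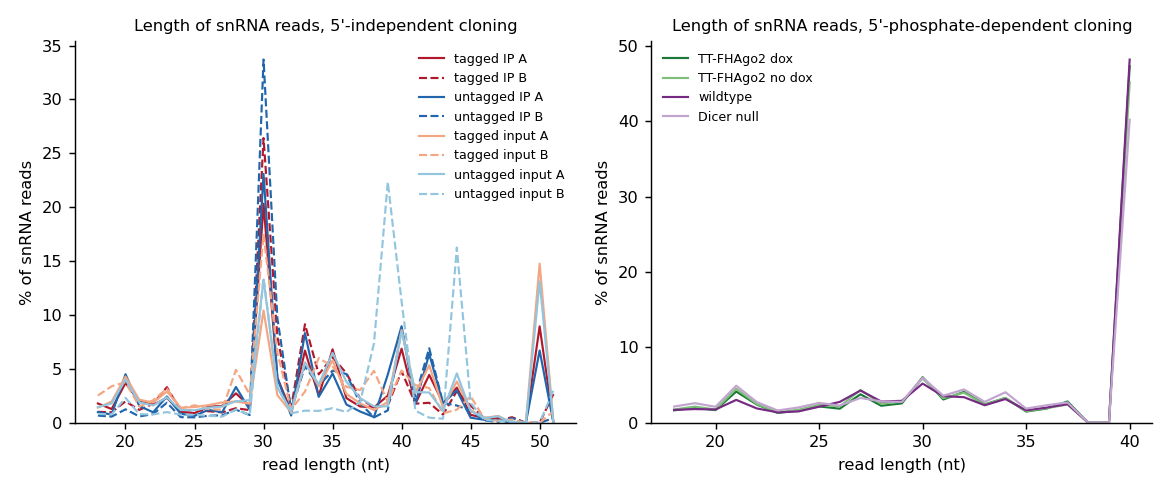
Lines give the percent of snRNA reads of each length in nt, for the 8 libraries made by circularization (left) and the 4 that need a 5' phosphate (right). A peak at 30 nt stands out in the left panel, untagged input B has its own peaks at 39 and 44 nt, and in the right panel 40.2% to 48.2% of reads stop at the 40 nt limit with none at 38 or 39 nt.

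The excess of U7 in untagged input B came from a few sequences. Starts at nt 24 of Rnu7 stood at 5783 CPM there and at 1.52 to 19.7 CPM in the 7 other libraries of this protocol, and starts at nt 23 at 2445 against 0.609 to 10.4 CPM. Starts at nt 19, the leading end in tagged IP A and B (56.2 and 51.8 CPM) and in the untagged IP (705 and 150 CPM), were also highest in that library, at 4291 CPM. U7 reads thus made up 65.3% of snRNA reads in untagged input B and 2.10% to 17.3% in the 7 other libraries made by circularization. The ends of U1 in that library moved too, with 49.4% of U1 reads at nt 135 against 20.2% in untagged input A.

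The 4 single libraries, which have no replicates and so allow no test, were led by U2. SnRNA reads made up 1.67% of TT-FHAgo2 with doxycycline, 1.996% without it, 1.86% of wildtype and 1.91% of Dicer null cells, a narrow range beside hairpin shares of 10.3%, 1.30%, 21.1% and 1.42%. U2 stood at 9492, 10924, 10656 and 9585 CPM in that order, U5 at 3451, 4517, 4213 and 4871 CPM and U1 at 3099, 3627, 2737 and 3689 CPM. Counting error is small at this depth: the exact 95% Poisson interval of U1 in Dicer null cells is 3676 to 3702 CPM. Without doxycycline, where Argonaute is lacking, the levels relative to wildtype were 1.03 for U2, 1.07 for U5, 1.33 for U1 and 0.91 for U6. In Dicer null cells they were 0.90, 1.16, 1.35 and 1.01. With doxycycline relative to without it, all 10 groups lay between 0.68 (U6 and U11) and 0.93 (Gm25541). U7, at 56.6, 68.3, 131 and 83.8 CPM, and Gm22710, at 14.2, 15.3, 23.1 and 36.4 CPM, spread the most of the 10.

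Only 13.2% to 13.7% of snRNA reads in these libraries ended within 2 nt of the annotated 3' end, against 59.3% to 90.6% in the 8 made by circularization. In these single libraries 85.6% to 86.0% touched neither end, but 40.2% to 48.2% stopped at the 40 nt read limit. The 2 protocols also differ in read limit and title code, so their values stand side by side without a test. U2 reads from nt 9 stood at 1777, 1714, 1564 and 1696 CPM in TT-FHAgo2 with and without doxycycline, wildtype and Dicer null cells, and at 0.299 to 2.48 CPM in the libraries made by circularization. U5 reads from nt 45 stood at 202, 280, 224 and 319 CPM, and at no more than 0.0332 CPM in the libraries of the other protocol. In U1 the leading pieces still ended at the 3' end but began elsewhere. Starts at nt 144 gave 425, 570, 233 and 540 CPM and starts at nt 128, a longer piece, 328, 310, 273 and 279 CPM, while nt 135 gave 46.9 to 54.2 CPM. The nt 144 start was the higher of these in 3 libraries and the nt 128 start in wildtype. Wildtype was the lowest of the 4 for the nt 144 start, and TT-FHAgo2 without doxycycline the highest. U12 kept 3.71% to 6.39% of its reads at the 3' end in these libraries, and its leading start was nt 60, at 24.8 to 29.8 CPM. Of U12 reads there, 77.5% to 84.9% stopped at the 40 nt read limit, so the true 3' ends of those RNAs are not seen.

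Some reads tell copies of a gene apart. The letters below are the last 36 nt of U1 and U5 copies, and capitals mark letters that are substituted or inserted relative to Rnu1a1 or Rnu5g in a global alignment.
Rnu1a1: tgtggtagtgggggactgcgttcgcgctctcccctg
Rnu1b6: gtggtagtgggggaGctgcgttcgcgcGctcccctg
Rnu5g: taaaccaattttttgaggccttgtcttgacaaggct
Gm25099: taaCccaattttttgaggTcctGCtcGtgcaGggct
Gm24871: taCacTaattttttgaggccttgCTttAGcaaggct
The sequence of Rnu1a1 belongs to 7 genes and that of Rnu1b6 (chr3:96460024-96460189) to 3. U1a and U1b are the 2 kinds of mouse U1, and the last 36 nt of Rnu1b1 are identical to those of Rnu1a1, so that only Rnu1b6 is told apart by its 3' stem. Reads that fit Rnu1b6 and not Rnu1a1 or Rnu1b1 made up 12.8% (A) and 18.9% (B) of U1 reads in the untagged IP, with 13.4% and 18.5% in the tagged IP, 14.1% and 21.01% in the tagged input and 13.7% and 17.9% in the untagged input. The ranges of IPs and inputs overlap, and B was higher than A in all 4 groups. The share was 5.79% to 7.496% in the single libraries, where fewer reads reach this stem.

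For all 7 U5 copies with reads of their own described here, both tagged IP values lay below both untagged IP values. This direction is not particular to these copies. Between the IPs edgeR called 236 of all 688 features lower, and 204 of the 262 that are neither miRNA nor snRNA. Gm25099 (chr4:117189942-117190057) had 21.9 and 67.3 CPM of reads found in no other snRNA sequence in the tagged IP against 362 and 681 in the untagged IP, and Rnu5g 13.0 and 41.0 against 251 and 355 CPM. The copy Gm24871 (chr1:171503048-171503163, within an exon of the antisense gene B930036N10Rik on the same strand) was lower in the single libraries of TT-FHAgo2 than in the other single libraries. Its own reads stood at 5.10 and 6.52 CPM in TT-FHAgo2 with and without doxycycline, and at 160 and 173 CPM in wildtype and Dicer null cells. A U2 copy, Gm25939 (chr1:72255008-72255198, 98.4% identical to Rnu2-10), had 8.16 and 9.68 CPM in TT-FHAgo2 and 86.9 and 57.8 CPM in the other lines. Both copies were singled out after their values were seen, with 1 library a condition. In the libraries made by circularization, all from TT lines, Gm24871 had 1.64 to 50.04 CPM of reads of its own and Gm25939 0 to 11.5 CPM. Tagged inputs A and B, also from TT-FHAgo2, held 14.6 and 34.3 CPM of Gm24871, where all U5 stood at 497 and 880 CPM. In the single TT-FHAgo2 libraries all U5 stood at 3451 and 4517 CPM. Beside all U5, Gm24871 was thus less scarce in these inputs than in the single libraries of the same line. Gm25939 stood at 1.74 and 0 CPM in these inputs. The cause was not tested.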

How the data were processed

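Each deposited file lists read sequences with their number of reads; these are raw counts that the authors did not normalise, per the file values. Trimming and alignment are not given in the sources used here. Small RNA of 12 libraries was cloned by circularization (8) or NEBNext ligation (4), per the labels' protocols. Sequences of 18 nt or more without N were matched exactly to transcripts of GENCODE vM21 on the sense strand, and genes sharing a read were merged (BLAST+ 2.17.0 for families). CPM uses the file total. Reads that also match a gene of another type, 3.12% to 66.8% of snRNA reads, were kept. The largest share is that of untagged input B.

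edgeR 4.0.16 (quasi-likelihood test, library totals, filterByExpr; R 4.3.3) took the counts of all 4 replicated groups in 1 fit, and 688 of 1386 features were tested. Shares were compared by exact permutation tests (scipy 1.17.1). Alternatives were TMM, DESeq2 1.42.0, other library sizes, filters, merging and read limits, a replicate block and leaving out libraries. On data simulated for the tagged against the untagged IP, with 532 features tested, 198 of 200 changes of 4 times were recovered, with 2 false calls among 332. The simulation gave every feature the same spread and as many increases as decreases, unlike the 359 higher and 236 lower features found here. Recovery at the spread of the snRNA groups was not tested.

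Named groups are the 12 highest by mean CPM, those with an Rnu gene and the largest changes; for each, the 3 leading 5' ends. The last 2 of the 12 are below 0.1 CPM and are not described. Rankings within a protocol, and 3' fragments, were chosen after values were seen. The members and lists were chosen with earlier results of these data known. The leading fragments of U5 and U6 in the ligation libraries are not reported here.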

Additional observations from a re-analysis of the deposited data

Results flagged for a closer look

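For 8 snRNA groups the gain of IP over input differed between the tagged and the untagged line by the interaction test of edgeR (adjusted over 688 features, n = 2 per group). The log2 difference, tagged minus untagged, was −3.70 for U1, −3.78 for U2, −3.54 for U5, −3.19 for U6, −2.44 for U12, −3.02 for U11, −2.78 for Gm25541 and −2.16 for Gm24265. Adjusted p-values ran from 0.0114 to 0.0233. The tag and the clone cannot be told apart in this difference, and the hairpin share of reads moved with it (58.3% and 50.7% in the tagged IP against 9.19% and 13.1% in the untagged IP). With library sizes set to reads outside hairpins, 4 groups were called in place of 8, with 9.29% of all features called lower.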

How the results depend on the processing

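Fewer snRNA groups were lower in the tagged IP than in its input with library sizes set to reads outside hairpins (3 in place of 8, with 27.5% of all features lower), and 4 in place of 8 differed in gain (9.29% of all features lower). With TMM 1 group (73 of 688 features higher) and with DESeq2 1 group (127 of 1200) was higher in the untagged IP than in its input, in place of 3 (234 of 688). Leaving out 1 library in turn gave 8 to 10 groups lower between the IPs, 5 to 8 in the tagged IP against input, 0 to 4 higher in the untagged IP against input and 3 to 9 in the gain. The share of all features called also moved in these fits, so a change in these counts is not particular to snRNA groups. Over the same fits the median log2 fold change of the 10 groups ran from −3.07 to −2.39 between the IPs. In the tagged IP against input it ran from −2.31 to −1.95, in the untagged from 0.60 to 1.11 and in the gain from −3.14 to −2.42. U12 in the tagged IP against input turned from 0.67 to −2.32 with TMM, and U7 in the untagged IP against input ran from −3.89 to 0.11. With each distinct sequence counted once, the snRNA share ratio was 1.05 for the tagged against the untagged IP and 0.763 for the untagged IP against input. Ratios between the IPs without U1 were 0.981 for 20 to 24 nt (0.969 to 1.98 leaving out libraries) and 1.01 for the 3' end (0.787 to 1.06); for the 5' end leaving out libraries gave 0.558 to 5.43. The cause was not tested. The median log2 fold change of all features between the IPs was 1.85 (359 higher, 236 lower), 0.10 with TMM (10 and 284), 2.92 outside hairpins (435 and 144) and 1.37 with DESeq2 (290 and 239). The 4 groups share the 2 codes of the titles, but the labels do not say that a code marks a shared batch or culture, and deviations from the group means correlated at 0.0019 to 0.623. With the code as a replicate block, 10, 8 and 8 groups were lower, where 35.9%, 39.8% and 32.0% of all features were. In the untagged IP against input 4 groups were higher, where 280 of 688 features were, since U5 was then called (edgeR adjusted p 0.0194).
Single groups kept their direction and their side of the threshold in 141 of the fits between the IPs, and the call was lost in 7. In the tagged IP against input the numbers were 130 and 14, in the untagged IP against input 124 and 19, and in the gain 129 and 17. In these comparisons a change of direction was still counted as kept where neither fit called the group. U7 in the gain, without untagged input B, was such a case. The share ratio of the untagged IP to its input was 1.12 without untagged input A and 3.60 without B. A condition left with 1 library was assumed to vary like the others. Restricting reads to those in no other gene type left 8 groups to test, without U7 and Gm22710. Leaving out U7 and the 4 nt window were chosen after seeing the data.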
